A study of Zea mays with 6 samples.

Results

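Class III peroxidase transcripts were examined in roots of maize grown with peanut (intercropped, 3 arrays) and in roots of maize grown alone (monocropped, 3 arrays). The members were 27 probe sets of 12255 in the authors' table of filtered probe sets. A probe set is a group of short probes against 1 transcript. Members were the 3 probe sets Zm.16176.1.A1_s_at, Zm.16176.1.A1_at and Zm.404.1.S1_at, plus every probe set whose gene title or target description holds the word peroxidase. Of the 32 matches, 5 ascorbate or glutathione peroxidases were left out, since these belong to other enzyme families. The 3 probe sets named singly also match the word. Only 9 members carry a peroxidase in their gene title. A further 16 are known only by the similarity of an expressed sequence tag cluster to an Arabidopsis peroxidase, graded weak or moderate by the annotation, and their place in the class rests on that grade. The 27 probe sets carry 25 cluster numbers. Both Zm.16176.1 probe sets come from the same transcript cluster, while Zm.4338.1 and Zm.4338.2 share only the first part of the number.

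Class III peroxidases are haem enzymes found only in plants, secreted to the cell wall or sorted to the vacuole. With hydrogen peroxide they oxidise phenolic substrates, which joins monolignols into lignin, phenolics into suberin, and, in grasses, the ferulate groups that tie arabinoxylan chains together. Some also sit at the plasma membrane, and members of the class can make reactive oxygen as well as use it. In roots they are known from the stiffening of walls as cells stop growing, from the barriers of endodermis and exodermis, and from defence against microbes.

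All plants were cultivar Nongda108, sampled at the reproductive stage from a greenhouse with calcareous sandy soil and basal fertilizer, and the intercropped plants shared the soil with peanut of cultivar Luhua14. The labels name no transgene or mutation for either group. Whether the arrays of a group stand for separate plants or pots is not stated, so the p-values speak of variation among 6 hybridised samples, part or all of which may be technical. In RNA from whole roots, fewer cells of a type and less RNA per cell cannot be told apart. The median signal was between 134 and 142 on all arrays, and 25.6% to 28.0% of probe sets had a signal below 50. Root-associated aquaporin and zrp4 probe sets, 11 in number, were measured, and limma called 0 of them at an adjusted p under 0.05. Their summed signal was 22426 to 25285 on intercropped and 16079 to 30914 on monocropped arrays, so the groups overlapped. Markers of other tissues were looked at in the same way, with 0 called in each list. Limma called 0 of all 13116 tested probe sets, so these zeros say nothing about the make-up of the tissue. Green tissue markers summed to 2750.3 to 3420 over 16 probe sets on intercropped and 3013 to 3382 on monocropped arrays. Seed storage protein probe sets (11 zeins) gave 6928 to 7632 on intercropped and 7598 to 7665 on monocropped arrays. The markers of dividing cells (13 probe sets) summed to 3011 to 3843 on intercropped and 3175 to 3703 on monocropped arrays. Such sums follow the brightest probe sets, and some single markers had groups that did not overlap. Among green tissue markers, a ycf3 probe set was higher on intercropped arrays (log2 difference 0.78) and another probe set was lower (-1.71). A gamma zein probe set was lower (-0.44), and a probe set described as the D-type cyclin cycD2 was higher (0.68). One measure of RNA quality separated the groups. The ratio of the 3 prime to the 5 prime signal of the control gene gapdh was 24.1, 22.0 and 16.3 on intercropped arrays, against 12.6, 8.87 and 13.5 on monocropped arrays. The same ratio for ef1a overlapped, at 2.98 to 3.95 on intercropped and 3.19 to 3.74 on monocropped arrays. That for actin overlapped too, at 4.39, 2.21 and 2.38 on intercropped arrays, against 2.48, 2.07 and 2.42 on monocropped arrays. The gapdh and actin ratios were both highest on intercropped replicate 1 and lowest on monocropped replicate 2. The hybridisation spike bioB had signals of 215, 421 and 124 on intercropped arrays, against 1116, 191 and 186 on monocropped arrays. The part of these ratios and of the spike in the results below was not tested.

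The peroxidases did not shift together. Their median log2 difference, intercropped minus monocropped, was 0.01, and over all 13116 tested probe sets it was also 0.01. The members spread far more widely than the array as a whole, with a standard deviation of log2 differences of 0.93 against 0.37. In intercropped roots 13 members had a lower mean log2 signal (48.1%, as in 48.1% of all probe sets) and 14 a higher one. By limma, at an adjusted p under 0.05 over all probe sets tested, 0 of 27 members were called, as were 0% of all probe sets. The lowest adjusted p of any probe set was 0.129, which members held too. At an unadjusted p under 0.05, 8 members were lower (29.6% of members, against 5.51% of all probe sets) and 1 was higher (3.7%, against 5.6%). In 8 members every intercropped array was below every monocropped array (against 8.69% of probe sets), and in 0 members was every intercropped array above (against 8.29%). At least 2-fold lower were 5 members (against 1.15% of probe sets), and at least 2-fold higher was 1 (against 1.3%). These counts take the 2 probe sets of Zm.16176.1 as 2 members. With only the brightest probe set of each of the 25 cluster numbers, 6 were lower at an unadjusted p under 0.05. That choice leaves out Zm.16176.1.A1_at and the titled pox1 probe set. One of the lower members, Zm.404.1.S1_at, met the filter, a signal of 50 on at least 3 arrays, through the monocropped arrays alone and so had to be lower. Among the 26 members without it, 7 were lower at an unadjusted p under 0.05 (26.9%), 7 were lower without overlap (26.9%) and 4 were at least 2-fold lower. These shares are descriptions, since the members were chosen with earlier results of these data known. Without intercropped replicate 1, limma called 34 probe sets over the array, and both Zm.16176.1 probe sets were among them (adjusted p = 0.0407 for the _s_at and 0.0367 for the _at set). Without any other single array limma called 0 probe sets, and the adjusted p of this pair lay between 0.197 and 0.445.

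**Figure D1:**
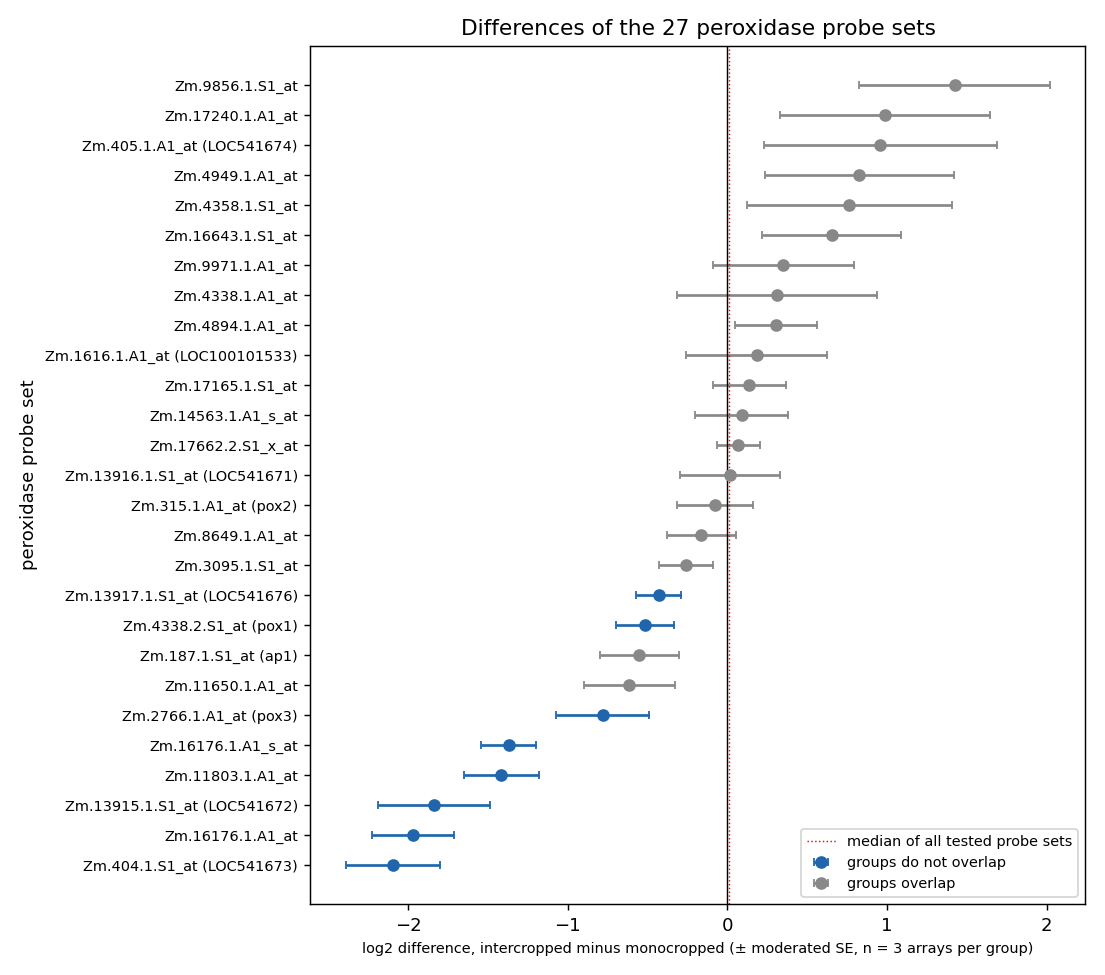
Log2 difference, intercropped minus monocropped, of each of the 27 peroxidase probe sets (points, with the moderated standard error as bars, n = 3 arrays per group), ordered by size. The 8 blue points, whose groups do not overlap, all lie below 0, and the 6 highest points have standard errors of 0.44 to 0.73.

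The peroxidase with the smallest p was measured by a pair of probe sets of cluster Zm.16176.1, both described by weak similarity to a putative peroxidase of Arabidopsis. The _s_at probe set had signals of 580.0, 466 and 409.9 on intercropped arrays, against 1460.4, 1220.3 and 1074 on monocropped arrays. All intercropped values were less than any monocropped value by a wide gap. The means were 485 ± 86.7 in intercropped and 1251 ± 195 in monocropped roots (SD, n = 3 each), which gives -1.37 ± 0.18 (SE) on the log2 scale and a limma adjusted p of 0.129. The ending _s_at marks probes that can match several transcripts. The _at probe set of the cluster had 137, 95.0 and 68.2 on intercropped arrays, against 417, 395 and 323 on monocropped arrays. This is a log2 difference of -1.97 ± 0.26, in the same direction and again without overlap. The pair reads 1 transcript cluster and counts as 1 gene.

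Anionic peroxidase H, LOC541673, read by Zm.404.1.S1_at, is named for its acidic charge. Its signals were 43.1, 20.9 and 40.4 on intercropped arrays, against 120.0, 154 and 154 on monocropped arrays. The groups did not overlap, and the log2 difference was -2.10 ± 0.29 (limma adjusted p = 0.129). Every intercropped signal was below 50, so its size depends on how low signals are treated, and with log2 of the signal plus 32 it was -1.40. On that scale R15 (LOC541672) had -1.70 and Zm.16176.1.A1_at -1.66.

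A second peroxidase with a maize name, R15 (LOC541672), had signals of 280.4, 154 and 357 on intercropped arrays, against 611, 1051 and 1088 on monocropped arrays. Both groups were uneven, yet the highest intercropped value stayed under the lowest monocropped one. The log2 difference was -1.84 ± 0.35, or a 3.57-fold higher level in monocropped roots (limma adjusted p = 0.201). Zm.11803.1.A1_at, similar to the Arabidopsis peroxidase ATP4a, had 244, 326 and 366 on intercropped arrays, against 752, 1109 and 664 on monocropped arrays. Here too no array of one group reached the other, and the log2 difference was -1.42 ± 0.24 (limma adjusted p = 0.157).

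The 3 other members without overlap differed by less than 2-fold. The gene pox3, known in maize from work linking its variants to how well forage cell walls are digested, had 617, 548 and 340.4 on intercropped arrays, against 707, 691 and 1194 on monocropped arrays. The gap between its groups was small beside the spread within them, and the log2 difference was -0.78 ± 0.29 (limma adjusted p = 0.393). The gene pox1 had 324, 286 and 221 in its named probe set on intercropped arrays, against 427, 409.6 and 342 on monocropped arrays, a log2 difference of -0.52 ± 0.18. Peroxidase R11 (LOC541676) had 162, 180.0 and 196 on intercropped arrays, against 264, 218 and 243 on monocropped arrays, a log2 difference of -0.43 ± 0.14. Both were evenly lower on each intercropped array, and neither passed the test (limma adjusted p = 0.367 for pox1 and 0.348 for R11).

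**Figure D2:**
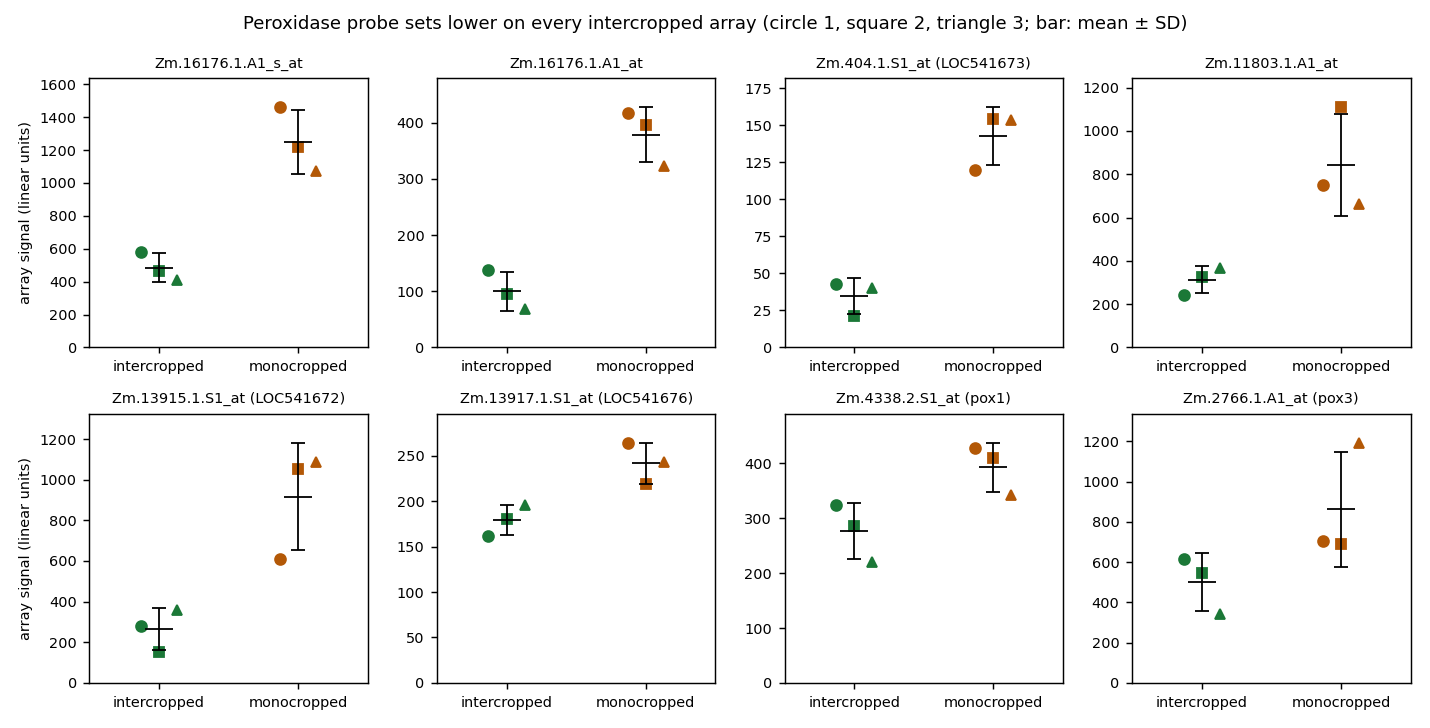
Array signals on a linear scale from 0 of the 8 probe sets whose intercropped arrays all lie below the monocropped ones. Points are arrays, and the black bar gives the mean and SD of 3 arrays. In Zm.16176.1.A1_s_at the mean is 485 on intercropped and 1251 on monocropped arrays, and in pox1 it is 277 on intercropped and 393 on monocropped arrays.

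The remaining 5 lower members had groups that overlapped. The anionic peroxidase gene ap1 had 309, 283 and 217 on intercropped arrays, against 278, 502 and 427 on monocropped arrays. Monocropped replicate 1 lay among the intercropped values, and the log2 difference was -0.55 ± 0.25 (limma adjusted p = 0.479). Zm.11650.1.A1_at, similar to an Arabidopsis peroxidase, also had monocropped replicate 1 among its intercropped values, with 119, 105 and 117 on intercropped arrays, against 111, 187 and 251 on monocropped arrays. Its log2 difference was -0.61 ± 0.28. The last 3 differed little, namely Zm.3095.1.S1_at (-0.26 ± 0.17), Zm.8649.1.A1_at (-0.16 ± 0.22) and pox2 (-0.08 ± 0.24, with a 95% interval from -0.64 to 0.48).

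Members with a peroxidase in their gene title and the others are given apart here, beside 5.51% lower and 5.6% higher at an unadjusted p under 0.05, and 48.1% below 0, over all probe sets. Of the 9 titled members 7 were below 0, 5 of them at an unadjusted p under 0.05 and 0 higher at that level, and the median log2 difference was -0.52. Without Zm.404.1.S1_at, 6 of 8 were below 0, 4 of them at that level, and the median was -0.47. Of the other 18 members, 16 of them named by similarity, 6 were below 0, 3 of them at that level, and 1 was higher at it, with a median of 0.22. The difference between these 2 kinds of member was not tested.

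Among the 14 higher members no group was clear of the other. The largest difference was that of Zm.9856.1.S1_at, similar to the same Arabidopsis peroxidase as Zm.11650.1.A1_at. It had 107, 59.4 and 150.0 on intercropped arrays, against 61.1, 14.2 and 57.1 on monocropped arrays. Intercropped replicate 2 lay just under monocropped replicate 1, and monocropped replicate 2 was far below all other arrays. The log2 difference was 1.42 ± 0.60, the one higher member with an unadjusted p under 0.05 (0.0479, limma adjusted p = 0.444). It was 0.74 without monocropped replicate 2. Zm.17240.1.A1_at, similar to a putative peroxidase, had 960.0, 492 and 283 on intercropped arrays, against 553, 102 and 305 on monocropped arrays. Its arrays were interleaved, and the log2 difference of 0.99 ± 0.66 became 0.32 without monocropped replicate 2.

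Of the other higher members, Zm.4949.1.A1_at had 120.3, 57.3 and 34.1 on intercropped arrays, against 42.1, 16.3 and 61.5 on monocropped arrays. Zm.4358.1.S1_at, similar to the peroxidase-like protein prx10, had 675, 146 and 192 on intercropped arrays, against 245, 77.6 and 203 on monocropped arrays. In both, intercropped replicate 1 was the highest and monocropped replicate 2 the lowest of all arrays. Their log2 differences were 0.83 ± 0.59 and 0.76 ± 0.64. The 6 highest members ran from 0.65 to 1.42, with standard errors of 0.44 to 0.73. In all 6 the lowest array was monocropped replicate 2, and in 5 the highest was intercropped replicate 1. Without monocropped replicate 2 their log2 differences were 0.26 to 0.74.

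The remaining higher members lay close to 0 or were poorly measured. Zm.9971.1.A1_at, similar to prxr2, had 676, 254 and 255 on intercropped arrays, against 436, 199 and 242 on monocropped arrays, a difference of 0.35 ± 0.44, and in each group replicate 1 was the highest array. Zm.4894.1.A1_at had a log2 difference of 0.30 ± 0.26. Zm.14563.1.A1_s_at, similar to ATP23a, had 742, 1107 and 1438 on intercropped arrays, against 1057, 715 and 1298 on monocropped arrays. Its groups were mixed, with a difference of 0.09 ± 0.29. Zm.17662.2.S1_x_at varied least, from 92.3 to 107 on intercropped and 92.2 to 96.7 on monocropped arrays. Its difference was 0.07 ± 0.14, with a 95% interval from -0.25 to 0.39, and the ending _x_at marks probes that may bind unrelated transcripts.

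Peroxidase signals differed between arrays of the same group more than those of most probe sets. The median standard error of a member's log2 difference was 0.29, against 0.18 over all tested probe sets, and 87.8% of these had a standard error below the members' median. The highest array of a group exceeded the lowest by a median of 1.84-fold among members on intercropped arrays and 1.78-fold on monocropped arrays. Over all tested probe sets these medians were 1.34-fold on intercropped and 1.24-fold on monocropped arrays. The plasma membrane peroxidase gene LOC541674 had the widest range of any member within a group, 6.23-fold between monocropped arrays.

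The arrays did not share the extremes evenly. Intercropped replicate 1 was the highest of its group in 19 of 27 members (70.4%, against 30.9% of probe sets). Monocropped replicate 2 was the lowest of its group in 16 members (59.3%, against 33.7%), and both held in 11 (40.7%, against 13.2%). The lower and the higher members differed in this. Monocropped replicate 2 was the lowest of its group in 13 of 14 higher members and in 3 of 13 lower ones, while intercropped replicate 1 was the highest in 10 and in 9. A low monocropped value makes a higher difference more likely, so the split by direction fixes part of this count.

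**Figure D3:**
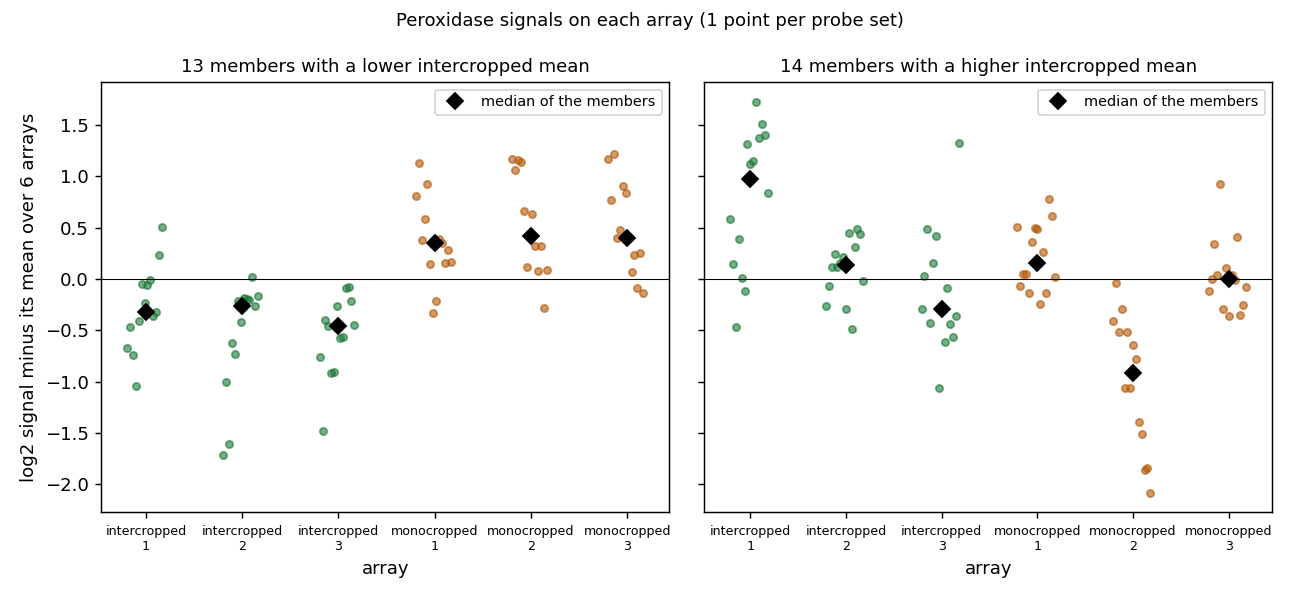
Log2 signal of each peroxidase probe set minus its mean over the 6 arrays (points), with the median of the members on each array (diamonds), for the members with a lower (left) and a higher (right) intercropped mean. The left medians are level within each group, at -0.46 to -0.26 on intercropped and 0.34 to 0.42 on monocropped arrays, and the right ones reach 0.97 on intercropped replicate 1 and -0.92 on monocropped replicate 2.

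Relative to their means over 6 arrays, the lower members had medians of -0.33, -0.26 and -0.46 on intercropped arrays, against 0.34, 0.42 and 0.40 on monocropped arrays. The gap between the groups is fixed by the choice of members with a negative difference, while the arrays within each group lay close together. The higher members had medians of 0.97, 0.13 and -0.29 on intercropped arrays, against 0.15, -0.92 and -0.00285 on monocropped arrays. Here too the choice of members with a positive difference favours a high intercropped and a low monocropped array. Over all 27 members the medians were 0.00485, -0.19 and -0.40 on intercropped arrays, against 0.28, -0.28 and 0.10 on monocropped arrays, and the groups overlapped. Without intercropped replicate 1 the median of the higher members was 0.24 and that of the lower members -0.66, and over all 27 members it was -0.27. Without monocropped replicate 2 the medians were 0.12 for the higher and -0.56 for the lower members. The dividing-cell markers had medians, relative to their means, of 0.22, 0.0426 and -0.0603 on intercropped arrays, against 0.10, -0.0673 and 0.11 on monocropped arrays. Those of the root markers were 0.15, 0.10 and 0.0934 on intercropped arrays, against -0.30, -0.40 and 0.42 on monocropped arrays. The gapdh and actin ratios given above were highest on intercropped replicate 1 and lowest on monocropped replicate 2. The part of any of these in the peroxidase values was not tested.

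Several members bear the same name, and their log2 differences were unlike in size or sign. Of the pair similar to ATP4a, Zm.11803.1.A1_at was lower without overlap, as given above. Its partner Zm.17165.1.S1_at had 863, 776 and 489 on intercropped arrays, against 681, 536 and 675 on monocropped arrays, a log2 difference of 0.14 ± 0.23 with a 95% interval from -0.40 to 0.67. That interval does not reach the -1.42 of the first, which has an SE of its own (0.24). Of the pair named R15, LOC541672 had -1.84 ± 0.35, while LOC541671 had 289.9, 161 and 158 on intercropped arrays, against 274, 146 and 178 on monocropped arrays. The LOC541671 groups were interleaved, with a difference of 0.01 ± 0.31 and a 95% interval from -0.72 to 0.75. The cluster Zm.16643.1, similar to the same Arabidopsis protein as Zm.16176.1, had 272, 169 and 80.5 on intercropped arrays, against 104, 71.8 and 127 on monocropped arrays. Its difference of 0.65 ± 0.44 was opposite in sign to both Zm.16176.1 values, and its groups overlapped. No test of the difference between probe sets was run.

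The 2 probe sets described as pox1 had differences of opposite sign. The one titled pox1, Zm.4338.2.S1_at, was lower by -0.52 ± 0.18 without overlap. Zm.4338.1.A1_at, which bears the name only in its target description, had 964, 447 and 185 on intercropped arrays, against 544, 185 and 416 on monocropped arrays. Its difference was 0.31 ± 0.62, with a 95% interval from -1.15 to 1.77 that holds the -0.52 of the other, and it turned to -0.27 without intercropped replicate 1. Which of them reads the pox1 transcript alone was not tested.

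**Figure D4:**
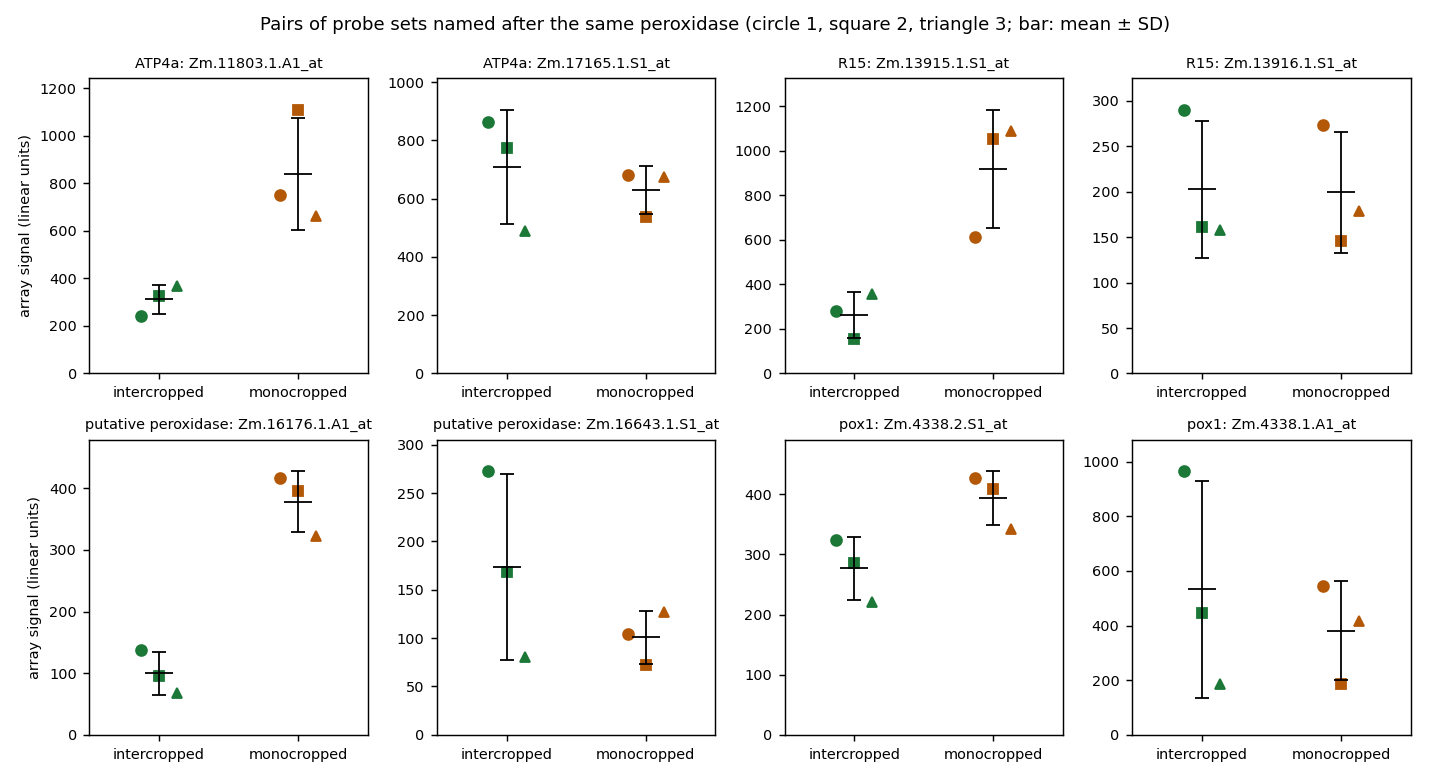
Array signals on a linear scale from 0 of 4 pairs of probe sets described by the same peroxidase name. Each pair holds the lowest and the highest log2 difference under its name, so the contrast follows in part from that choice. Zm.16176.1.A1_s_at (-1.37) is not drawn. Nor are Zm.11650.1.A1_at (-0.61), Zm.4894.1.A1_at (0.30) and Zm.9856.1.S1_at (1.42), which share a name, or the prx10 pair (-0.16 and 0.76). Points are arrays, and the black bar gives the mean and SD of 3 arrays. In each pair the first probe set has intercropped arrays that all lie below the monocropped ones, with log2 differences of -1.42, -1.84, -1.97 and -0.52, and the second has groups that overlap.

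The reference gene table gives plasma membrane peroxidase names (pmPOX) to 4 members, pox1, pox2, LOC541674 and LOC100101533. Enzymes of this kind have been isolated from plasma membranes of maize roots. Their log2 differences were -0.52 ± 0.18 for pox1, -0.08 ± 0.24 for pox2, 0.96 ± 0.73 for LOC541674 and 0.18 ± 0.44 for LOC100101533. Each of these had a limma adjusted p between 0.367 and 0.934, and pox1 alone had groups that did not overlap. The pox2 signals were 1214, 764 and 628 on intercropped arrays, against 961, 911 and 781 on monocropped arrays, with the intercropped values around the monocropped ones. LOC541674, described as a putative peroxidase P7X, had 232, 114 and 55.0 on intercropped arrays, against 139, 22.4 and 63.6 on monocropped arrays. LOC100101533 had 139, 149.8 and 154 on intercropped arrays, against 126, 66.3 and 262 on monocropped arrays. Its intercropped arrays were close together and the monocropped ones wide apart, so that its mean signal was slightly lower (148 in intercropped against 151 in monocropped roots) while its mean log2 signal was higher.

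The peroxidases act with enzymes that supply and remove hydrogen peroxide and with those that make or join phenolics. Limma called 0 members of these lists, as it called 0 of all 13116 tested probe sets. Of 23 probe sets for sources of hydrogen peroxide, 13 were lower and 10 higher, and the median of their log2 differences was -0.03. At an unadjusted p under 0.05, 6 were lower and 2 higher (against 5.51% lower and 5.6% higher of all probe sets, here and for the lists below), and all 6 were among the 9 germin-like proteins. Some germins make hydrogen peroxide from oxalate, and germin-like proteins resemble them in sequence. Zm.1315.1.A1_at, similar to one, had 147, 106 and 57.4 on intercropped arrays, against 377, 272 and 288 on monocropped arrays, a log2 difference of -1.68 ± 0.34. Zm.11238.1.A1_at, similar to another, had 289.7, 87.9 and 136 on intercropped arrays, against 500.4, 681 and 517 on monocropped arrays, a difference of -1.89 ± 0.40. Both were without overlap (limma adjusted p = 0.204 and 0.219). The 2 higher ones, named after their values were seen, also had no overlap. Zm.1987.2.A1_at, described as the manganese superoxide dismutase SOD-3, had 486, 1679 and 895 on intercropped arrays, against 323, 68.8 and 386 on monocropped arrays, or 2.14 ± 0.71 on the log2 scale. The probe set titled sod3 had 0.03 ± 0.12. Zm.12390.1.A1_at, similar to a respiratory burst oxidase, which makes superoxide, had 0.90 ± 0.37.

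Removal of hydrogen peroxide by catalases and by the ascorbate and glutathione peroxidases was read by 10 probe sets, 3 lower and 7 higher, with a median of 0.05. None was lower and 1 was higher at an unadjusted p under 0.05, a probe set of the cluster of catalase-1. It had 195, 177 and 94.8 on intercropped arrays, against 95.5, 68.3 and 85.1 on monocropped arrays, a log2 difference of 0.85 ± 0.29 with overlapping groups. The 3 probe sets titled cat1 had 0.19 ± 0.22, 0.07 ± 0.14 and -0.07 ± 0.18. The next smallest p belonged to the glutathione peroxidase gene GP, whose 617, 412 and 361 on intercropped arrays, against 364, 343 and 460.2 on monocropped arrays, gave 0.22 ± 0.23. Monolignols are the phenolic units of lignin. Monolignol synthesis was read by 18 probe sets, 11 lower and 7 higher, with a median of -0.04. At that level 2 were lower and 1 higher, and none of the 3 had overlapping groups (against 8.69% lower and 8.29% higher without overlap over all probe sets). A probe set similar to phenylalanine ammonia-lyase, the entry enzyme of the phenylpropanoid pathway, had 139.9, 161 and 176 on intercropped arrays, against 284, 222 and 297 on monocropped arrays, or -0.75 ± 0.17. One similar to a cinnamoyl-CoA reductase, which makes monolignol aldehydes, had 228, 240.4 and 194 on intercropped arrays, against 275, 312 and 321 on monocropped arrays, or -0.46 ± 0.14. The higher one, named after its values were seen, is also described as a cinnamoyl-CoA reductase (Zm.2550.2.A1_at, 0.90 ± 0.31). The titled maize genes for these enzymes lay nearer 0, with 0.06 ± 0.13 for phenylalanine ammonia-lyase (LOC542258), -0.05 ± 0.18 for cncr1 and -0.14 ± 0.21 for cncr2. Laccases, dirigent proteins and blue copper proteins made up 7 probe sets, 2 lower and 5 higher, with a median of 0.07. At that level 0 were lower and 2 higher. Laccase also oxidises monolignols, without hydrogen peroxide, and LAC1 had 345, 841 and 804 on intercropped arrays, against 289, 309 and 249 on monocropped arrays, or 1.13 ± 0.34 on the log2 scale (limma adjusted p = 0.309). The blue copper protein LOC541713 had 891, 669 and 439 on intercropped arrays, against 379, 180.2 and 312 on monocropped arrays, a difference of 1.21 ± 0.34. In both, every intercropped array was above every monocropped one.

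In the authors' deposited table of their SAM test (significance analysis of microarrays), the 3 probe sets of Zm.16176.1 and anionic peroxidase H shared a q-value of 5.80%. That table, the authors' deposited table, lists 10 lower probe sets with a q-value of that size or smaller. It lists 0 lower ones at 5% or less, while 5 higher ones are. The authors' deposited table gives a q-value of 10.5% for Zm.11803.1.A1_at and 11.9% for R15 (LOC541672), and the lowest of any higher member is 35.6%, for Zm.9856.1.S1_at. In limma's ranking of all tested probe sets by p, 2 members stood among the first 10 and 5 among the first 100. The 2 are the pair of Zm.16176.1 (ranks 4 and 7), which reads the same transcript cluster. The 5 also hold anionic peroxidase H (rank 15). These 3 probe sets are the ones named singly as members, and members were chosen with earlier results of these data known. The counts are therefore descriptions.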

How the data were processed

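Biotin-labelled cRNA from total root RNA was hybridised to single-colour Affymetrix maize arrays. Groups came from the treatment label and replicate numbers from the titles. The deposited series table holds an intensity per probe set, already summarised and scaled by the authors; the submitters' processing notes name GCOS 1.4, but neither algorithm nor scaling target is given in the sources used here. The authors' filtered table holds log2 values, equal to log2 of the deposited intensities within 3.6e-15, for 12255 probe sets, each at 50 or more on at least 3 arrays. The authors' SAM table gives, per the file headers, a score, a log2 difference, a fold change as a ratio and a q-value as a percent, from an unpaired test of 2 classes. Its 6 columns of sample values were not used. Scaling hides any change of all transcripts in one direction.

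Of 17734 probe sets, 179 controls (AFFX and RPTR) were left out. Values were floored at 1 before taking log2. The 13116 probe sets with an intensity of 50 or more on at least 3 of 6 arrays were tested with limma 3.58.1 in R 4.3.3 (lmFit, eBayes with trend=TRUE, all 6 arrays, two-sided, Benjamini-Hochberg over all tested). Since the word match needs the SAM table, each member had passed its filter: 23 of 27 were at 50 or more on all arrays. The steps were run on simulated data with independent noise and changes larger than those of most members. That run does not show how often differences of the members' size would be found. Gene names follow the authors' annotation, and 6 of 10 members with a gene identifier were found in the RefSeq gene table (for names alone, on Zm-B73-REFERENCE-NAM-5.0). Given with every array are the 3 probe sets the rule names, up to 10 members lower and 10 higher without overlap by smallest p, the 5 with the highest mean signal, and the 2 of smallest p in each pathway list. Other members were picked after their values were seen. Members, lists and markers were chosen with earlier results of these data known. Same-numbered arrays correlated at 0.27, -0.0692 and -0.00411 in their deviations from the group means over all tested probe sets. Over the members the values were 0.54, 0.19 and -0.0244. Intercropped replicate 3 and monocropped replicate 2 correlated at 0.33 over all tested probe sets. Deviations of 3 arrays from their mean depend on each other, so these values cannot decide whether the numbers pair samples. The main fit took the arrays as unpaired. Alternatives were other normalizations, filters, a pseudocount of 32, trend=FALSE, the replicate block, other memberships, and each array left out.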

Additional observations from a re-analysis of the deposited data

How the results depend on the processing

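Under the other normalizations, filters, pseudocount, memberships, trend setting and replicate block tried, limma called 0 peroxidases at an adjusted p under 0.05. With the replicate block 7 members were lower and 1 higher at an unadjusted p under 0.05, and 0 were called. With 1 array left out the number called over the array ran from 0 to 34 and that of members from 0 to 2. The 34 and the 2 were both without intercropped replicate 1, and without any other single array 0 were called. In the fits with 1 array left out, 6 to 8 members were lower and 0 to 3 higher at an unadjusted p under 0.05. The median of all members ran from -0.27 (without intercropped replicate 1) to 0.0736 (without intercropped replicate 3). The higher count was 0 among probe sets whose mean log2 signal reached that of 100 and 0 in the authors' filtered probe sets. With log2 of the signal plus 32, 1 probe set was called over the array, and it was no member. With the 9 titled members alone, 5 were lower and 0 higher at that level and the median was -0.52, by construction of the smaller set. Among the members given with every array by the rule on naming, the sign turned in 4 cases, each of a member chosen for its high mean signal: Zm.17165.1.S1_at to -0.0252 without intercropped replicate 1 (up to 0.38 without other arrays), Zm.14563.1.A1_s_at to -0.13 without intercropped replicate 3 and -0.15 without monocropped replicate 2 (up to 0.34), and pox2, Zm.315.1.A1_at, to 0.13 without intercropped replicate 3 (down to -0.35). The median of all members was -0.03 after quantile normalization and -0.02 with array medians set equal. Leaving out both arrays numbered 1, chosen after seeing the data, left 9 members lower and 1 higher at an unadjusted p under 0.05. Leaving out the member that met the filter through one group alone, also chosen after seeing the data, left 7 lower and 1 higher at that level and a median of 0.04. Of all 27 members, 1 lower and 6 higher ones changed sign on leaving out some array. The cause of these changes was not tested. Signals below 50, the number of arrays and old annotation limit what can be read.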
